A study of Mus musculus with 6 samples.

Results

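The naive-state pluripotency factors described here are 10 genes (Klf2, Klf4, Klf5, Esrrb, Zfp42, Tfcp2l1, Nr0b1, Dppa3, Tbx3 and Prdm14), taken by gene name from the 34745 genes of the deposited expression table. All 10 names were found, each on 1 row. They were measured by RNA sequencing in the embryonal carcinoma line P19, mouse tumour cells that are grown in serum and keep the capacity to form heart muscle and nerve cells. The labels give 3 libraries of untreated control cells and 3 of cells treated with the peptide PDTLN1, all of the same line in the same α-MEM medium with serum, and give neither a dose nor a duration. No label names separate cultures, so the spread behind each p-value is that between these libraries and may be technical.

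Pluripotent mouse cells occur in a naive state, that of the pre-implantation epiblast, and in formative and primed states, those of the epiblast after implantation. Pou5f1, Sox2 and Nanog form the core network, with Pou5f1 and Sox2 used in all of these states, while the naive factors hold cells in the first: Klf2, Klf4, Klf5, Esrrb, Tfcp2l1 and Tbx3 act as transcription factors downstream of LIF-STAT3, beta-catenin and related signals. Nr0b1 and Zfp42 are nuclear proteins long used as markers of embryonic stem cells, and Prdm14 and Dppa3 restrain DNA methylation and are also made in primordial germ cells.

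Total gene counts lay between 10381307 and 11663081 per library. The P19 cells expressed markers of pluripotent cells, while no gene of 8 retinal markers reached 10 counts in any library (the extraction text of the labels speaks of retinas). Over all 13836 genes tested, edgeR's quasi-likelihood test called 3 genes higher after PDTLN1 and 0 lower at a Benjamini-Hochberg adjusted p under 0.05. Of the marker lists for other cell types, only the fibroblast list (Col1a1, Col1a2, Col3a1, Dcn, Lum, Pdgfrb and Thy1, none at 0 in all libraries) had summed levels without overlap between the groups. They were 78.5 to 80.9 CPM (counts scaled by library total) in controls and 61.3 to 71.2 after PDTLN1. Among single genes tested, 4.98% had groups apart and lower after PDTLN1, and the difference of the sum was not tested. In bulk RNA, fewer cells of a type and less RNA per cell cannot be told apart. Whether the P19 cells themselves express the fibroblast markers was not tested.

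Measured against Pou5f1 and Nanog, all 10 naive factors were at low levels in P19 cells. Levels are given in FPKM, counts scaled by gene length and by the library's total. Pou5f1, the homeodomain factor at the centre of the network, was at 545 ± 12.4 FPKM in controls (SD, n = 3) and 504 ± 30.8 after PDTLN1 (SD, n = 3), above 99.8% of the 21269 genes with any count. Nanog, its homeodomain partner, was at 40.5 ± 4.58 and 37.4 ± 4.37 FPKM (SD, n = 3 each), above 94.6% of those genes. No naive factor reached the lowest value of Nanog, 32.5 FPKM, in any library. The 10 factors together summed to between 18.4 and 34.1 FPKM in a library, less than Nanog alone in each of the 6.

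**Figure D1:**
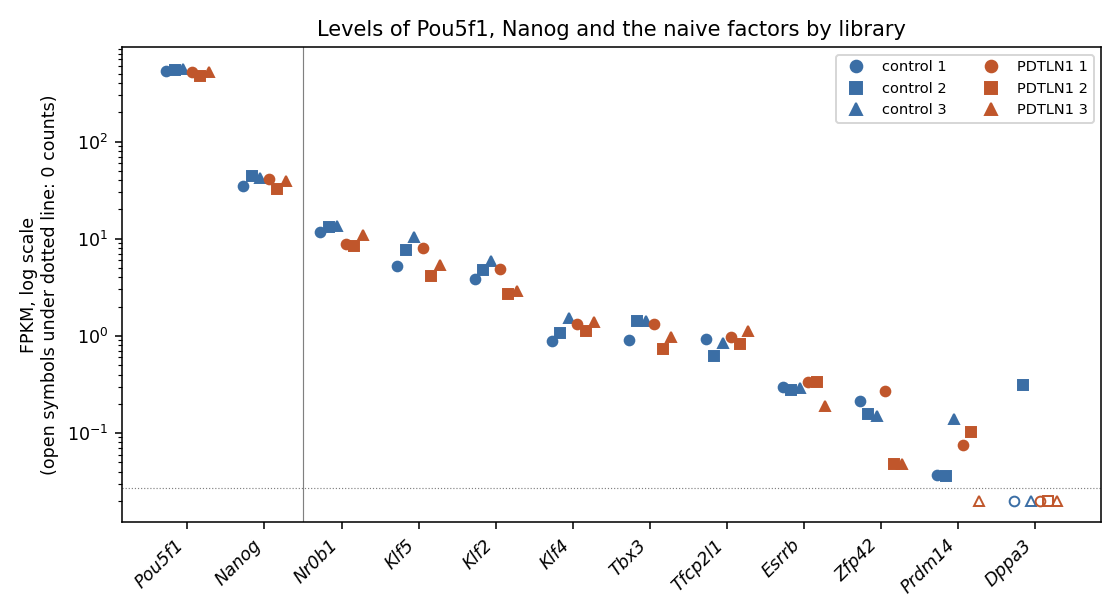
FPKM on a log axis for Pou5f1, Nanog and the 10 naive factors, ordered by mean level, with 1 symbol per library (blue control, orange PDTLN1; open symbols are libraries with 0 counts). Nr0b1, Klf5 and Klf2 lie between 2.68 and 13.4 FPKM, and Zfp42, Prdm14 and Dppa3 below 0.32.

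By mean FPKM over the 6 libraries the order was Nr0b1 (11.05), Klf5 (6.83), Klf2 (4.15), Klf4 (1.22), Tbx3 (1.12), Tfcp2l1 (0.887), Esrrb (0.288), Zfp42 (0.147), Prdm14 (0.0650) and Dppa3 (0.0524). Neighbours in this order had overlapping ranges over the libraries at all but 2 places, between Klf2 and Klf4 and between Tfcp2l1 and Esrrb. On this scale the factors lay on 3 steps, with Nr0b1, Klf5 and Klf2 highest and with Esrrb, Zfp42, Prdm14 and Dppa3 lowest. These levels rest on the gene lengths behind the deposited FPKM, whose gene model is not stated. The deposited length was 2.78 times that of the longest transcript in GENCODE for Tbx3, 2.52 times for Esrrb and 1.97 times for Pou5f1, and 0.513 times for Klf5. With the longest transcript as the length, a choice made after seeing the data, the means were 1033 FPKM for Pou5f1, 42.4 for Nanog, 11.05 for Nr0b1, 4.15 for Klf2, 3.51 for Klf5, 3.13 for Tbx3, 1.77 for Klf4, 0.918 for Tfcp2l1 and 0.726 for Esrrb. On that scale Klf2 came before Klf5 and Tbx3 before Klf4, and the ranges of neighbours were separate at 3 other places, between Nr0b1 and Klf2, Klf4 and Tfcp2l1, and Esrrb and Zfp42. Klf2 and Klf4 were then no longer neighbours, and Esrrb overlapped Tfcp2l1.

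Nr0b1 (Dax1), an orphan nuclear receptor without a classical DNA-binding domain that binds Pou5f1 and Esrrb in stem cells, was the naive factor with the highest level and the smallest p. Control libraries 1, 2 and 3 were at 11.6, 13.2 and 13.4 FPKM, and PDTLN1 libraries 1, 2 and 3 at 8.74, 8.45 and 10.9 FPKM. Every PDTLN1 library lay below every control library, with a narrow gap between PDTLN1 library 3 and control library 1. The log2 fold change was -0.45 with an SE of 0.13 (95% interval -0.74 to -0.15), an unadjusted edgeR p of 0.00725 and, over all 13836 genes, an adjusted p of 0.989, so the difference did not pass. Groups without overlap and lower after PDTLN1 were found for 4.98% of all genes tested, and 1 of the 7 naive factors tested was among them. The summed level of the 7 fibroblast markers was also lower after PDTLN1, at 61.3 to 71.2 CPM against 78.5 to 80.9, though among the 7 only Thy1 had groups that did not overlap in FPKM. The part of that sum in the Nr0b1 difference was not tested. Nr0b1 (ENSMUSG00000025056) lies on chromosome X from 86191764 to 86195947 on the plus strand, in GRCm38, with no other annotated gene overlapping it.

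The Krüppel-like factors Klf2, Klf4 and Klf5 bind CACCC and GC-rich sites through 3 zinc fingers and can stand in for each other in stem cells. Klf5 was at 5.23, 7.61 and 10.5 FPKM in control libraries 1, 2 and 3, and at 8.12, 4.14 and 5.38 in PDTLN1 libraries 1, 2 and 3. Klf2 stood at 3.83, 4.76 and 5.86 FPKM in the controls and at 4.90, 2.68 and 2.88 after PDTLN1, in the same order. Both genes were highest in control library 3 and lowest in PDTLN1 library 2, and for both the groups overlapped. PDTLN1 library 1 lay among the controls for both genes, and PDTLN1 library 3 also lay above control library 1 for Klf5. Klf4 ranged from 0.890 FPKM in control library 1 to 1.54 in control library 3, with all 3 PDTLN1 libraries in between. In edgeR's test the log2 fold changes were -0.48 for Klf2 (95% interval -1.07 to 0.12), -0.41 for Klf5 (-1.14 to 0.31) and 0.12 for Klf4 (-0.40 to 0.64), each with an adjusted p of 0.989. These intervals include 0, and those of Klf2 and Klf5 reach beyond a log2 fold change of -1. The value of Klf5 was -0.14 without control library 3 and -0.72 without PDTLN1 library 1, that of Klf2 -0.31 and -0.80, and that of Klf4 -0.04 without control library 1.

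Among the 14 other genes of the KLF family, Klf6, a widely expressed member, had the highest level, between 27.6 and 35.8 FPKM, above every library of the 3 naive members. Klf9 (12.7 to 19.07 FPKM), Klf16 (15.0 to 17.8) and Klf10 (8.36 to 15.3) also lay above the means of Klf5 and Klf2. Klf17 had 11 counts over all libraries. None of the 12 that could be tested passed, where 0.0217% of all genes tested did. Klf14 had the smallest p, with a log2 fold change of 1.06 (edgeR adjusted p 0.989) from 0.171 to 0.364 FPKM.

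Esrrb, the oestrogen-related receptor that binds DNA next to Pou5f1 and Nanog and is a main target of beta-catenin signalling in naive cells, had the lowest level of the 7 factors with enough counts to test. The controls stood at 0.300, 0.276 and 0.289 FPKM, and PDTLN1 libraries 1, 2 and 3 at 0.338, 0.337 and 0.190, from 24 to 42 counts per library. The log2 fold change was -0.01 with an SE of 0.27 (95% interval -0.61 to 0.60). PDTLN1 library 3 was the lowest of all, and without it the value was 0.23. Its paralog Esrra, which acts on mitochondrial genes, was at 5.17 to 6.33 FPKM, while Esrrg lay at 0.208 to 0.374, a range that overlapped that of Esrrb. Deposited gene models scale these levels: with the longest transcript Esrrb was at 0.726 and Esrra at 9.60 FPKM on average.

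Tfcp2l1, a grainyhead-like factor and target of STAT3, and Tbx3, a T-box factor of the naive network, lay near 1 FPKM. Tfcp2l1 was at 0.937, 0.624 and 0.839 FPKM in control libraries 1, 2 and 3 and at 0.974, 0.815 and 1.13 in PDTLN1 libraries 1, 2 and 3. Its groups overlapped, with control library 2 lowest, and its log2 fold change of 0.28 (95% interval -0.17 to 0.73, edgeR adjusted p 0.989) was the highest among the naive factors tested. Tbx3 stood at 0.904, 1.42 and 1.41 FPKM in the controls and at 1.31, 0.739 and 0.965 after PDTLN1. As with Klf2 and Klf5, PDTLN1 library 1 sat beside control libraries 2 and 3, and the log2 fold change was -0.31 (95% interval -0.87 to 0.25, edgeR adjusted p 0.989). The span of Tbx3 overlaps that of the antisense gene Tbx3os1. As no strand setting is given, reads from stretches that both cover cannot be told apart, and overlap of exons was not examined. The same holds for Pou5f1 and the antisense gene Gm19553, and Tfcp2l1 overlaps 3 small RNA genes or pseudogenes (Gm22094, Gm28882 and Gm23497). The paralogs Tfcp2 and Ubp1, which are widely expressed, stood at 5.57 to 7.46 and 27.9 to 31.8 FPKM, above Tfcp2l1 in each library, and Tbx2 at 1.13 to 1.49.

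Zfp42 (Rex1), a zinc finger protein and one of the classical markers of naive embryonic stem cells, gave 17 counts over all 6 libraries. Control libraries 1, 2 and 3 had 4, 3 and 3 counts and PDTLN1 libraries 1, 2 and 3 had 5, 1 and 1, which left it below edgeR's filter on low counts. Summed by group, the level was 0.172 FPKM in controls (exact 95% Poisson interval 0.0824 to 0.316) and 0.116 after PDTLN1 (0.0466 to 0.239), intervals that cover counting error only. These overlap widely, so a difference was not detectable at this depth. Yy1, the ubiquitous factor from whose family Zfp42 derives, was at 32.4 to 39.6 FPKM, and the related retrogene Yy2 at 0.273 to 5.11.

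Zfp42 is a textbook target of Pou5f1, through an octamer in its promoter, and Nanog carries a joint Pou5f1 and Sox2 site. The promoters are shown because the mRNAs of these genes differed by a factor of 152 to 820 in FPKM within a library while Pou5f1 was abundant in all. This factor rests on 1 to 5 counts of Zfp42 per library, so its range includes counting error. The promoter of Nr0b1, the naive factor with the highest level, is set beside them. Each run covers the 250 bases before the RefSeq start of transcription in GRCm38.p6, 5′ to 3′ on the gene's strand. Capitals mark the octamer (ATGCAAAT on either strand) in Zfp42, and in Nanog the shorter ATGCAA and CATTGT, each on either strand; ATGCAA is part of the octamer. They are located at chr8:43307010-43307259 on the minus strand (Zfp42), chr6:122707239-122707488 on the plus strand (Nanog) and chrX:86191525-86191774 on the plus strand (Nr0b1, whose RefSeq start lies 11 bases after the start in the deposited table).
Zfp42: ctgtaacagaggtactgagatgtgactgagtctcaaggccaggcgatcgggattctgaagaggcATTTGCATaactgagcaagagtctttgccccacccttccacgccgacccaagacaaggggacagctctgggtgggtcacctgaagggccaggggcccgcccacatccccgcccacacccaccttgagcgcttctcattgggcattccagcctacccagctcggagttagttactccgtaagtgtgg
Nanog: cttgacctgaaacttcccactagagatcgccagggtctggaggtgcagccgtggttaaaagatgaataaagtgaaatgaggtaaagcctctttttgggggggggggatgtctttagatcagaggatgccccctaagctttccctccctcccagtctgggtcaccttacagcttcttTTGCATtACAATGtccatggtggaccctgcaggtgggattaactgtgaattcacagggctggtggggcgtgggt
Nr0b1: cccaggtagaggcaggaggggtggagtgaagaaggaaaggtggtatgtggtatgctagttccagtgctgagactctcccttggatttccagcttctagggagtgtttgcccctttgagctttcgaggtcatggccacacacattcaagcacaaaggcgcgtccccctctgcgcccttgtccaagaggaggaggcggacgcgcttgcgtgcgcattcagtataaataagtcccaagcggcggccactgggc
In Zfp42 the octamer begins 186 bases before the start, and in Nanog the ATGCAA and CATTGT matches begin 74 and 67 bases before it. RefSeq holds another start of Nanog, at 122707565, and the same matches begin 150 and 143 bases before that start. Of 32851 RefSeq promoter windows of this length, 1.60% held the octamer, 9.45% ATGCAA and 10.7% CATTGT. The window of Nr0b1 held none of these letters. RefSeq windows were at hand for 6 of the naive factors (Klf2, Klf4, Esrrb, Zfp42, Tfcp2l1 and Nr0b1), and Zfp42 was the 1 with an octamer. A window of Esrrb, at a start other than that in the deposited table, also held ATGCAA, 162 bases before that start. Klf5, Dppa3, Tbx3 and Prdm14 had no entry. The KLF core CACCC, on either strand, was found in a window of 4 of the 6 and in 52.0% of all windows. A match describes letters in the window and was not measured as binding here.

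Prdm14, a zinc finger protein that represses the de novo DNA methyltransferase Dnmt3b and FGF signalling in naive cells, gave 11 counts in all. Libraries held 1, 1 and 4 counts in controls and 2, 3 and 0 after PDTLN1, a level of 0.0724 FPKM in controls (exact 95% Poisson interval 0.0266 to 0.158) and 0.0581 after PDTLN1 (0.0189 to 0.136). The groups could not be told apart at this depth. Its corepressor partner Cbfa2t2 was expressed at 1.78 to 2.65 FPKM, and its log2 fold change of -0.27 missed the threshold (edgeR adjusted p 0.989).

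Dppa3 (Stella), a maternal factor that keeps Uhrf1 and Dnmt1 from methylating DNA, gave 3 counts in control library 2 and 0 in the other 5 libraries. A count of 0 allows up to 0.288 to 0.324 FPKM per library (3 counts), a bound above the means of Zfp42 and Prdm14. Dppa3 lies on chromosome 6 from 122626410 to 122630272 and ends 77.2 kb before the start of Nanog, which spans 122707489 to 122714633 on the same strand. Within 60 kb on either side of this stretch, the other protein-coding genes were all detected in each library. Gdf3, a ligand of the TGF-beta family, lies just before Dppa3 and was at 18.3 ± 1.70 FPKM in controls and 19.2 ± 1.72 after PDTLN1 (SD, n = 3 each), and Slc2a3, which encodes a glucose transporter and lies just after Nanog, was at 114 to 211 FPKM. Apobec1, an RNA-editing cytidine deaminase at the far side of Gdf3, stood at 0.934 to 1.84 FPKM. Dppa3 was therefore at or near 0 between neighbours that were expressed. Its partner in stem cells Uhrf1 was at 60.05 to 68.0 FPKM.

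Set against Pou5f1 within each library, where the scaling of the library cancels, the naive factors spanned a wide range. Pou5f1 was 40.9 to 60.2 times as high in FPKM as Nr0b1, 53.2 to 113 times as high as Klf5 and 95.4 to 180 times as high as Klf2. For Klf4, Tbx3 and Tfcp2l1 the ratio lay between 363 and 865, for Esrrb between 1394 and 2728 and for Zfp42 between 1966 and 10870. Relative to Nanog the same factors were 3.03 to 4.67 times lower (Nr0b1), 4.05 to 7.85 times lower (Klf5), 7.26 to 13.6 times lower (Klf2) and 96.6 to 206 times lower (Esrrb). With the longest transcript as the length, Pou5f1 was 93.5 times as high as Nr0b1, 249 times as high as Klf2 and 295 times as high as Klf5 on average, against 47.5, 126 and 76.8 with the deposited lengths, so that the order of Klf2 and Klf5 turned, and Nanog was 58.4 times as high as Esrrb, against 135. The size of these gaps thus depends on the gene model, and their direction did not in any of the 8 factors compared. Prdm14 and Dppa3, with a 0 in at least 1 library, were given no ratio.

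No ratio could reach an adjusted p under 0.05 between PDTLN1 and control, as an exact permutation of 3 against 3 libraries gives no p under 0.10. The differences are therefore a description. The log2 ratio of Nr0b1 to Pou5f1 was -5.42 ± 0.09 in controls and -5.76 ± 0.17 after PDTLN1 (SD, n = 3 each), a difference of -0.34, and to Nanog it was -1.66 ± 0.07 and -2.004 ± 0.20, also a difference of -0.34. In both, every PDTLN1 library lay below every control library, which were 2 of the 16 ratios computed. Each of these 2 had an exact two-sided permutation p of 0.10, the smallest that 3 against 3 libraries can give, and an adjusted p of 0.533 over the 16 ratios. For the other members the differences relative to Pou5f1 ran from -0.39 (Klf2) to 0.40 (Tfcp2l1), beside -0.89 for Zfp42, which rests on 1 to 5 counts per library. Pou5f1 itself also had all its PDTLN1 libraries (469 to 526 FPKM) below its controls (535 to 559), as 4.98% of all genes tested did. Its log2 fold change was -0.11 (95% interval -0.25 to 0.02, edgeR adjusted p 0.989), so the ratio of Nr0b1 to Pou5f1 differed by less than Nr0b1 alone.

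Across the set, 7 of the 10 factors had enough counts to test, and Zfp42, Prdm14 and Dppa3 did not. None of the 7 passed edgeR's adjusted threshold, against 0.0217% of all genes tested; 1, Nr0b1, was at an unadjusted p under 0.05, where 3.99% of all genes were, and DESeq2 called 0 of the 7 and 0.047% of all genes. Of the 7, 5 lay below 0 and 2 (Klf4 and Tfcp2l1) above, with a median log2 fold change of -0.31 beside -0.00087 over all genes tested, of which 50.3% lay below 0. The 7 were measured in the same libraries, and this median is a description with no test. Leaving out 1 library moved it between -0.50 and -0.14.

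**Figure D2:**
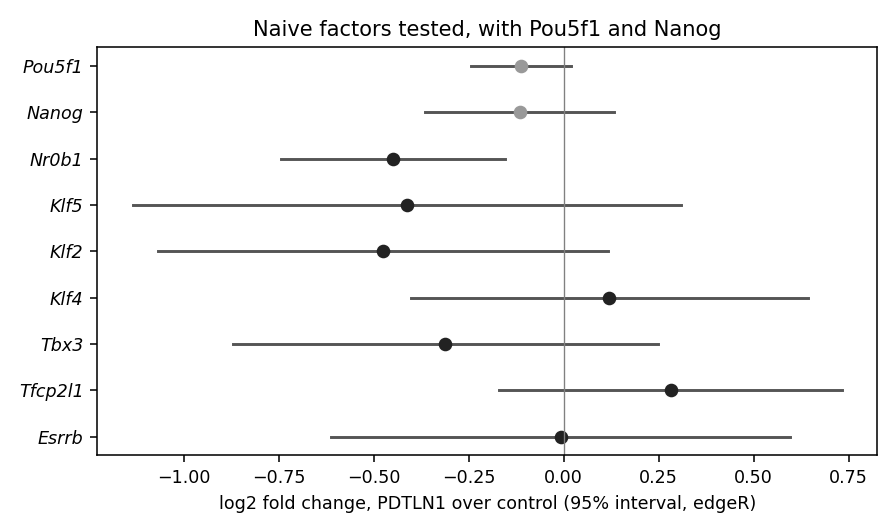
Log2 fold change of PDTLN1 over control from edgeR, with its unadjusted 95% interval, for the 7 naive factors tested (black) and for Pou5f1 and Nanog (grey). The interval of Nr0b1, -0.74 to -0.15, is the 1 that does not include 0.

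Much of the spread among libraries was shared by Klf2, Klf5 and Tbx3. For each of these 3 genes, control libraries 2 and 3 and PDTLN1 library 1 held the 3 highest values, and control library 1 and PDTLN1 libraries 2 and 3 the 3 lowest, and the same held for Nanog. The first principal component over all genes tested, which held 34.96% of the variance, placed the libraries likewise: control library 1 and PDTLN1 libraries 2 and 3 at 17.0, 23.5 and 11.7, and control libraries 2 and 3 and PDTLN1 library 1 at -14.2, -19.8 and -18.3. Klf5 deviated from its mean by -0.31, 0.22 and 0.68 log2 units in control libraries 1, 2 and 3 and by 0.32, -0.64 and -0.28 in PDTLN1 libraries 1, 2 and 3. Nr0b1 did not follow this division: its control library 1 was at 0.10 with the controls, and PDTLN1 library 1 at -0.31 with PDTLN1 library 2. Esrrb, Klf4 and Tfcp2l1 had other orders again.

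With the first principal component as a covariate, the log2 fold changes were -0.29 for Klf2, -0.15 for Klf5 and -0.11 for Tbx3, and -0.42 for Nr0b1. With both libraries numbered 1 left out, they were -0.94, -0.94 and -0.74 for Klf2, Klf5 and Tbx3, with edgeR adjusted p of 0.0939, 0.0995 and 0.0963 in 2 against 2 libraries, and -0.47 for Nr0b1 (adjusted p 0.168). Values of Klf2, Klf5 and Tbx3 therefore moved by over 1.5 times with the treatment of this component, while that of Nr0b1 moved by less, and none passed in either fit. The groups left in the second fit lie on opposite ends of the component, so that treatment and component cannot be told apart there.

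**Figure D3:**
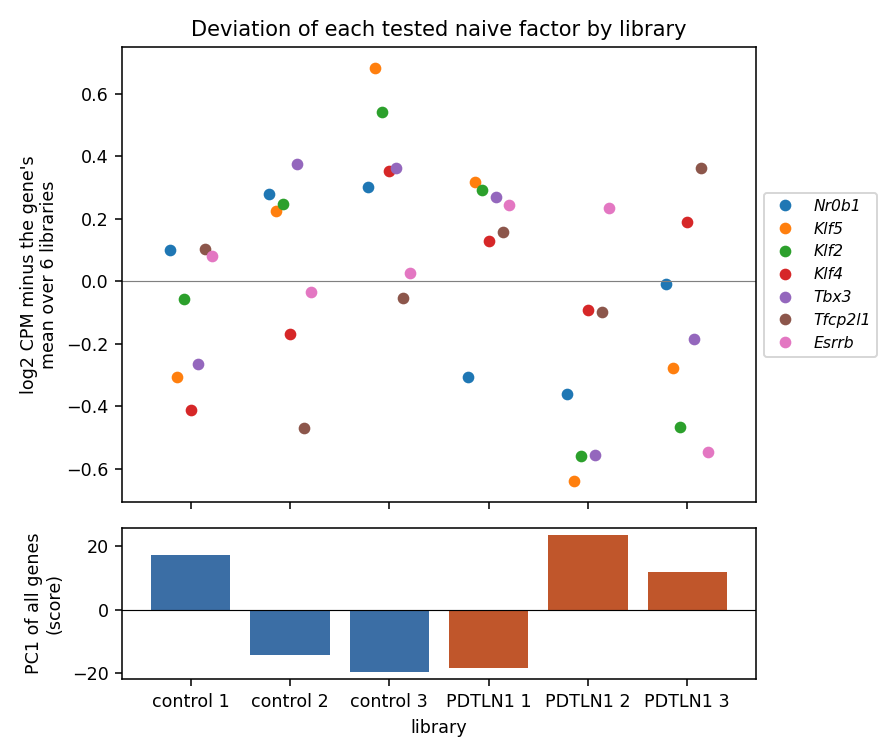
Top, log2 CPM of each of the 7 naive factors tested minus its mean over the 6 libraries; bottom, the score of each library on the first principal component of all genes tested (blue control, orange PDTLN1). Klf2, Klf5 and Tbx3 lie below 0 in control library 1 and PDTLN1 libraries 2 and 3, where the score is positive.

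No gene of the signalling arms that feed the naive network passed the threshold, which 0.0217% of all genes tested passed. Levels within an arm differed widely. In the LIF-STAT3 arm, the receptor chains Lifr and Il6st were at 3.50 to 4.46 and 4.18 to 5.58 FPKM, Stat3, the transcription factor they activate, at 4.77 to 5.62, and its target Socs3 at 4.24 to 5.06. Lif itself was at 0.253 to 0.782 FPKM, the receptor gene Il6ra at 0.262 to 0.428, and Osmr had 1 count over all libraries. Of 13 genes 12 were tested and 0 passed, with a median log2 fold change of 0.05. Il6st, at 0.17, had all its PDTLN1 libraries above its controls (edgeR adjusted p 0.989). It was the 1 such gene of the 12, and 666 of all 13836 genes tested had groups apart in this direction. In the beta-catenin arm, Tcf7l1, the repressor that silences Esrrb and other naive genes, was at 13.6 to 18.4 FPKM, well above Esrrb. Lef1, another TCF-family factor, had the smallest p of the 9 genes (unadjusted edgeR p 0.0101). It was at 6.83 ± 0.32 FPKM in controls and 5.69 ± 0.35 after PDTLN1 (SD, n = 3 each). Its log2 fold change was -0.26 (edgeR adjusted p 0.989), and 0 of 9 passed. Lef1 was the 1 of the 9 with groups apart and lower, as in 4.98% of all genes tested. In the FGF-MEK arm, which drives cells out of the naive state, 0 of 14 passed. The adaptor gene Grb2 had a log2 fold change of 0.52 (unadjusted edgeR p 0.00522). For the ETS factor gene Etv4, an FGF target, it was -0.31 (unadjusted edgeR p 0.0312). The edgeR adjusted p was 0.989 for both. Grb2, Fgfr1 and Fgfr2 were the 3 of the 14 with all PDTLN1 libraries above all controls, as in 666 of all 13836 genes tested. None of the 14 had groups apart and lower.

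Genes of the formative and primed states were all detected, with Dnmt3b and Otx2 highest. Dnmt3b, the de novo DNA methyltransferase that increases on exit from the naive state, was at 32.6 to 40.9 FPKM, the epiblast homeobox gene Otx2 at 17.9 to 23.3, Sox3 at 10.1 to 14.4 and Cdh2, the mesenchymal cadherin, at 11.8 to 12.9. Fgf5 and Pou3f1, widely used markers of the primed epiblast, stood lower, at 1.99 to 3.89 and 2.10 to 3.05 FPKM. Of the 12 genes all were tested and 0 passed, where 0.0217% of all genes tested did, with a median log2 fold change of 0.00. Dnmt3b had the smallest p, with a log2 fold change of -0.15 (edgeR adjusted p 0.989). Its groups overlapped in FPKM. In the CPM of edgeR's fit they just did not, with PDTLN1 library 2 at 343.67 and control library 3 at 343.98. On that scale 4.98% of all genes tested had groups apart and lower.

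Other genes of the naive state were mixed in level. Of 14, Pramel6, Pramel7 and Khdc3 had 0 counts in all libraries, Ooep and Spic had 1 each and Tcl1 and Dppa5a 9 each. Tdh, the threonine dehydrogenase on which mouse embryonic stem cells depend, was at 6.30 to 9.94 FPKM, Gbx2, a homeobox target of STAT3, at 3.05 to 4.19, and the zinc finger gene Zfp57, which guards imprints, at 3.56 to 11.6. Nr5a2, which can replace Pou5f1 in reprogramming, was at 0.0423 to 0.177 FPKM. The 7 genes tested had a median log2 fold change of -0.01 and 0 passed, where 0.0217% of all genes tested did. Of the core pluripotency list 12 of 12 were tested and 0 passed. Utf1, a chromatin factor of pluripotent cells, had the smallest p (unadjusted edgeR p 0.00248, below the 0.00725 of Nr0b1). It was at 60.5 ± 1.91 FPKM in controls and 46.5 ± 4.82 after PDTLN1 (SD, n = 3 each). Its log2 fold change was -0.38 (edgeR adjusted p 0.989). Utf1 and Pou5f1 were the 2 of the 12 with groups apart and lower, as in 4.98% of all genes tested.

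**Figure D4:**
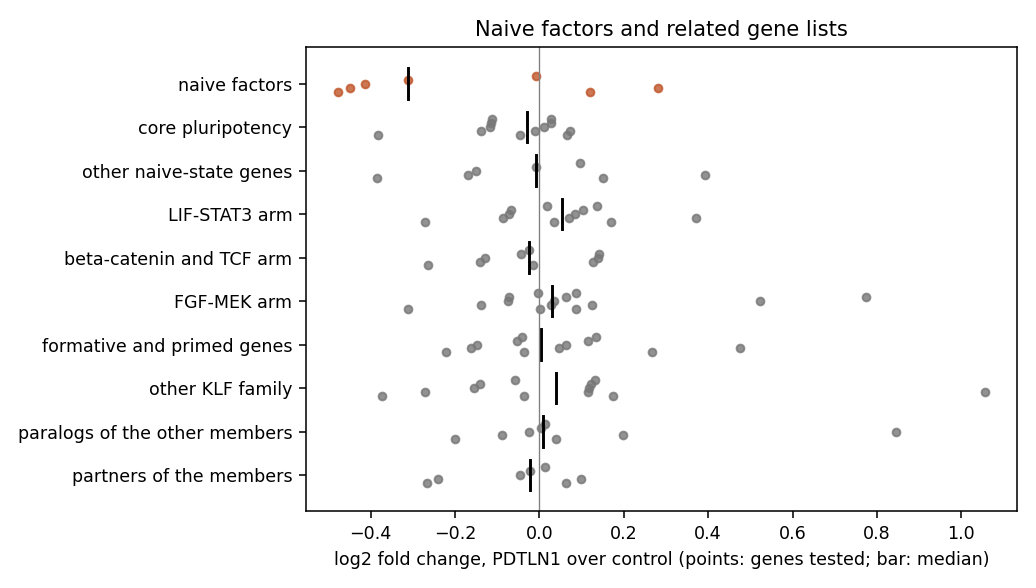
Log2 fold change of PDTLN1 over control for the tested genes of each list (points) and the list's median (bar). The median of the naive factors is -0.31 over 7 genes, and those of the other lists lie between -0.03 and 0.05; no gene shown passed the adjusted threshold.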

How the data were processed

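RNA of P19 cells was sequenced in 3 control and 3 PDTLN1 libraries (Illumina TruSeq kit, per the labels' protocols). The authors deposited whole-number read counts per gene, not normalized, and FPKM values, per the file headers. Bowtie 0.12.2 and the builds mm8 and mm9 are named, with no role, per the submitters' processing notes; the counter, annotation and strand setting: not given in the sources used here. The gene length that counts and FPKM imply was equal across libraries within 0.1% for all 15678 genes counted in each library. That length exceeded the longest GENCODE M21 transcript by over 1.5 times for 43.6% of 21120 genes. Positions equalled GENCODE M21 (GRCm38) for 27686 of 34267 identifiers, so coordinates are in GRCm38.

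Samples were grouped by the treatment label and columns assigned by title. The titles of the treated libraries carry a code in place of the peptide's name, which the labels do not explain. Counts were tested with edgeR 4.0.16 in R 4.3.3: filterByExpr, TMM scaling, glmQLFit with robust estimation, glmQLFTest, two-sided, Benjamini-Hochberg over 13836 genes, threshold 0.05. SEs are log2 fold changes over the root of F. FPKM ratios were tested by exact permutation. Intervals and floors (3 counts) cover counting error only. Steps were tested on simulated data. In 1 simulated set of counts, edgeR's test recovered 44% of 50 genes changed 1.5-fold, 78% of 50 changed 2-fold and 92% of 50 changed 4-fold. Of its 168 calls, 15 were false. Named are the 10 members, Pou5f1, Nanog and up to 4 genes per related list with the smallest p; other list genes were chosen after their values were seen. Members and lists were chosen with earlier results of these data known. Alternatives were DESeq2 1.42.0, other scalings and filters, a threshold of 0.1, the replicate block, leaving out libraries, the first principal component (log2 CPM, prior count 2), pseudocounts and another length. Same-numbered libraries are not labelled as paired.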

Additional observations from a re-analysis of the deposited data

How the results depend on the processing

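No naive factor passed in any of the 15 alternatives, and the median log2 fold change of the 7 tested stayed below 0, from -0.50 to -0.11. Klf2, Klf5, Tbx3 and Nr0b1 stayed below 0 and Tfcp2l1 above 0 in 14 of 14 alternatives each. The number of genes called over the whole table was 10 with DESeq2, 8 with no filter beyond a count in 1 library, 8 with the first principal component as a covariate, 91 with both libraries numbered 1 left out (among them 2 genes of the related lists, Egr1 and Zfp57) and 2 to 13 with 1 library left out; the cause was not tested. With the replicate number as a block, 1 gene was called, and the value of Nr0b1 was -0.46 (edgeR adjusted p 1.00). Deviations of same-numbered libraries correlated at -0.36, -0.14 and -0.10 across genes, so no pairing was seen, and no call of a naive factor changed.

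Signs turned only for Klf4, Esrrb and Zfp42, all with values near 0 or counts near the floor; the cause was not tested. With 1 library left out, the log2 fold change ran from -0.039 to 0.38 for Klf4 and from -0.14 to 0.23 for Esrrb, and the difference of Esrrb from -0.13 to 0.36 relative to Pou5f1 and from -0.17 to 0.37 relative to Nanog. With both libraries numbered 1 left out Klf4 was at -0.066 and Esrrb relative to Pou5f1 at -0.0041, and with the principal component as a covariate Esrrb was at 0.0079. With 1 FPKM added, Zfp42 was at 0.042 relative to Pou5f1 and 0.040 relative to Nanog. Neighbours in the order of levels were separate at 2 or 3 places in each of 8 alternatives, but these were not always the same places. With the longest transcript as the length they were other places than with the deposited lengths. They also differed with CPM in place of FPKM. In the CPM of edgeR's fit Klf2 (4.95 to 10.8) overlapped Klf4 (3.94 to 6.81), while Klf4 and Esrrb (2.05 to 3.68) were separate. The steps seen in FPKM thus did not hold in CPM. Depth limits Zfp42, Prdm14 and Dppa3, for which a difference between the groups was not detectable.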
